A study of Mus musculus with 4 samples.

Results

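Ferritin and antioxidant genes were examined in human immune cells of humanised mice, as a set of 10 genes chosen by name out of 33538 human genes in the count tables. The set holds both ferritin subunits (FTH1 and FTL), the thioredoxin system (TXN, TXNRD1 and TXNIP), the peroxiredoxins PRDX1 and PRDX2, the superoxide dismutases SOD1 and SOD2, and glutaredoxin GLRX. All 10 were detected in each of the 4 libraries. Levels were measured in 17020 cells in which more than 50% of the UMIs (unique molecular identifiers, each standing for 1 captured transcript) lay on human genes, namely 6323 cells of naïve blood, 4648 of sham blood, 5931 of SCI blood and 118 of SCI cord.

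The hosts were huNSG-SGM3 mice, that is NOD.Cg-Prkdcscid mice with IL2rgtm1Wjl and the transgene Tg(CMV-IL3,CSF2,KITLG)1Eav, of the MloySzJ stock. They lack their own lymphocytes and carried human IL3, CSF2 and KITLG under the CMV promoter. All groups, controls included, had been irradiated and engrafted with human cord blood CD34+ cells, and the labels give an age of 15 weeks. Naïve mice had no surgery, sham mice had a laminectomy only, and SCI mice had a contusion of the thoracic spinal cord, with the operated groups collected 7 days later. Live cells carrying human CD45 were sorted and pooled over animals into 1 library per group, which therefore has no replicate. Per the study's methods, every mouse gave blood and the SCI mice also gave cord, so that the SCI blood and SCI cord libraries can hold cells of the same mice. The hosts keep their own mouse neutrophils, red blood cells and microglia, and mouse genes are not part of the values given here. Naïve and sham hosts were male whereas the SCI hosts were of both sexes, so that host sex and injury cannot be told apart. Cord tissue was digested with papain at body temperature and blood was not, so that digestion and tissue cannot be told apart either.

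Ferritin is a shell of heavy (FTH1) and light (FTL) subunits that stores iron, with the heavy subunit oxidising iron for storage and the light subunit helping to form the mineral core. Translation of both messages is held back by iron regulatory proteins when iron is short, so that a transcript level is not a level of protein. Thioredoxin (TXN) reduces oxidised cysteines in other proteins, thioredoxin reductase (TXNRD1) recharges it with NADPH, and TXNIP binds thioredoxin and restrains it, besides limiting glucose uptake. PRDX1 and PRDX2 break down hydrogen peroxide in the cytosol and are recharged by thioredoxin, SOD1 (cytosol) and SOD2 (mitochondria) turn superoxide into hydrogen peroxide, and GLRX removes glutathione from protein cysteines.

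The libraries held between 34161760 and 36487994 UMIs over both species in blood and 4206461 in the cord. Levels are given as CPM, that is UMI counts scaled to the same total, leaving out ribosomal and mitochondrial genes. On that basis the mean depth per cell kept was 3487, 4418 and 3622 UMIs in naïve, sham and SCI blood, and 8990 in the cord. Counted as UMIs per cell, log2 ratios over all cells shift by the ratio of these depths, namely 0.34 (sham to naïve), 0.05 (SCI to naïve) and −0.29 (SCI to sham) in blood and 1.31 from SCI blood to cord. All ratios below are relative to total UMIs, that is to this shift. CD45 itself (PTPRC), used for the sort, was present at 1360 to 1940 CPM across libraries and at 253 CPM or more in every class with at least 10 cells. Markers of red blood cells summed to 7.89 CPM or less in every library and class. Between 5 and 16 barcodes were shared by each pair of blood libraries, and 1 by SCI blood and SCI cord. Cells were clustered without the 10 genes and without the other redox and iron genes described further on, so that levels of these genes played no part in setting the classes. Clusters were called "like" a cell type from marker lists; a cluster led by FSCN1, with B cell markers but also IGHG1 and CCL17 among its genes, kept its number (cluster 9), and a cluster made up of cells marked as doublets was left out of class comparisons. A value that differs from the study's may come from these rebuilt names.

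Intervals are exact 95% intervals that cover counting error only, since 1 library per group gives no spread between animals. No test between conditions was therefore possible, and no p-value is given. A difference was counted as past the threshold when it exceeded 1.5-fold, and counts of genes past it are set beside the share of all genes past the same fold.

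Ferritin transcripts were most abundant in the myeloid classes. Basophil or mast-like cells held FTH1 at 9655, 12464 and 12102 CPM in naïve, sham and SCI blood and at 15301 CPM in SCI cord. Monocyte-like cells were next, with 7648, 7433 and 5608 CPM in the 3 blood libraries. All other blood classes with at least 10 cells lay between 1320 CPM (plasma-like, naïve blood) and 3225 CPM (cluster 9, sham blood), so that neither myeloid class overlapped with any lymphoid class. Over 11 classes the highest class median was 7.89-fold above the lowest for FTH1 and 11.97-fold for FTL, whereas blood libraries differed within a class by at most 1.45-fold (cluster 9) and 1.52-fold (NK-like cells).

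For FTL the order of the leading classes was the other way round. Monocyte-like cells held 14047, 13292 and 13202 CPM in naïve, sham and SCI blood, and basophil or mast-like cells 7361, 9468 and 8947 CPM, and 10729 CPM in SCI cord. Plasma-like cells, present in numbers only in naïve blood (385 cells), held 3234 CPM, which was above every other lymphoid class. The lowest FTL levels of blood were in naïve T-like cells (1111, 1026 and 1273 CPM). In SCI cord, 13 eosinophil-like cells held 12115 CPM of FTH1 (11516 to 12736) and 11823 CPM of FTL. Both subunits together made up 2.60% of the UMIs of cord basophil or mast-like cells and 2.17% of those of naïve monocyte-like cells, against 0.280% to 0.300% in CD8 T-like cells of the 4 libraries.

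The balance of the subunits, as UMIs of FTH1 per UMI of FTL, therefore differed by class, and it is compared here only between classes since capture differs between transcripts. CD4 T-like cells had 2.14, 2.40 and 1.76 in naïve, sham and SCI blood and 2.14 in SCI cord. B-like cells had 1.13, 1.11 and 0.998, basophil or mast-like cells between 1.31 and 1.43 over the 4 libraries, and monocyte-like cells 0.544, 0.559 and 0.425. Plasma-like cells of naïve blood had the lowest balance, at 0.408, close to the 0.425 of monocyte-like cells of SCI blood (983 and 2314 UMIs). No interval of the CD4 T-like ratio overlapped with that of B-like or monocyte-like cells.

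**Figure D1:**
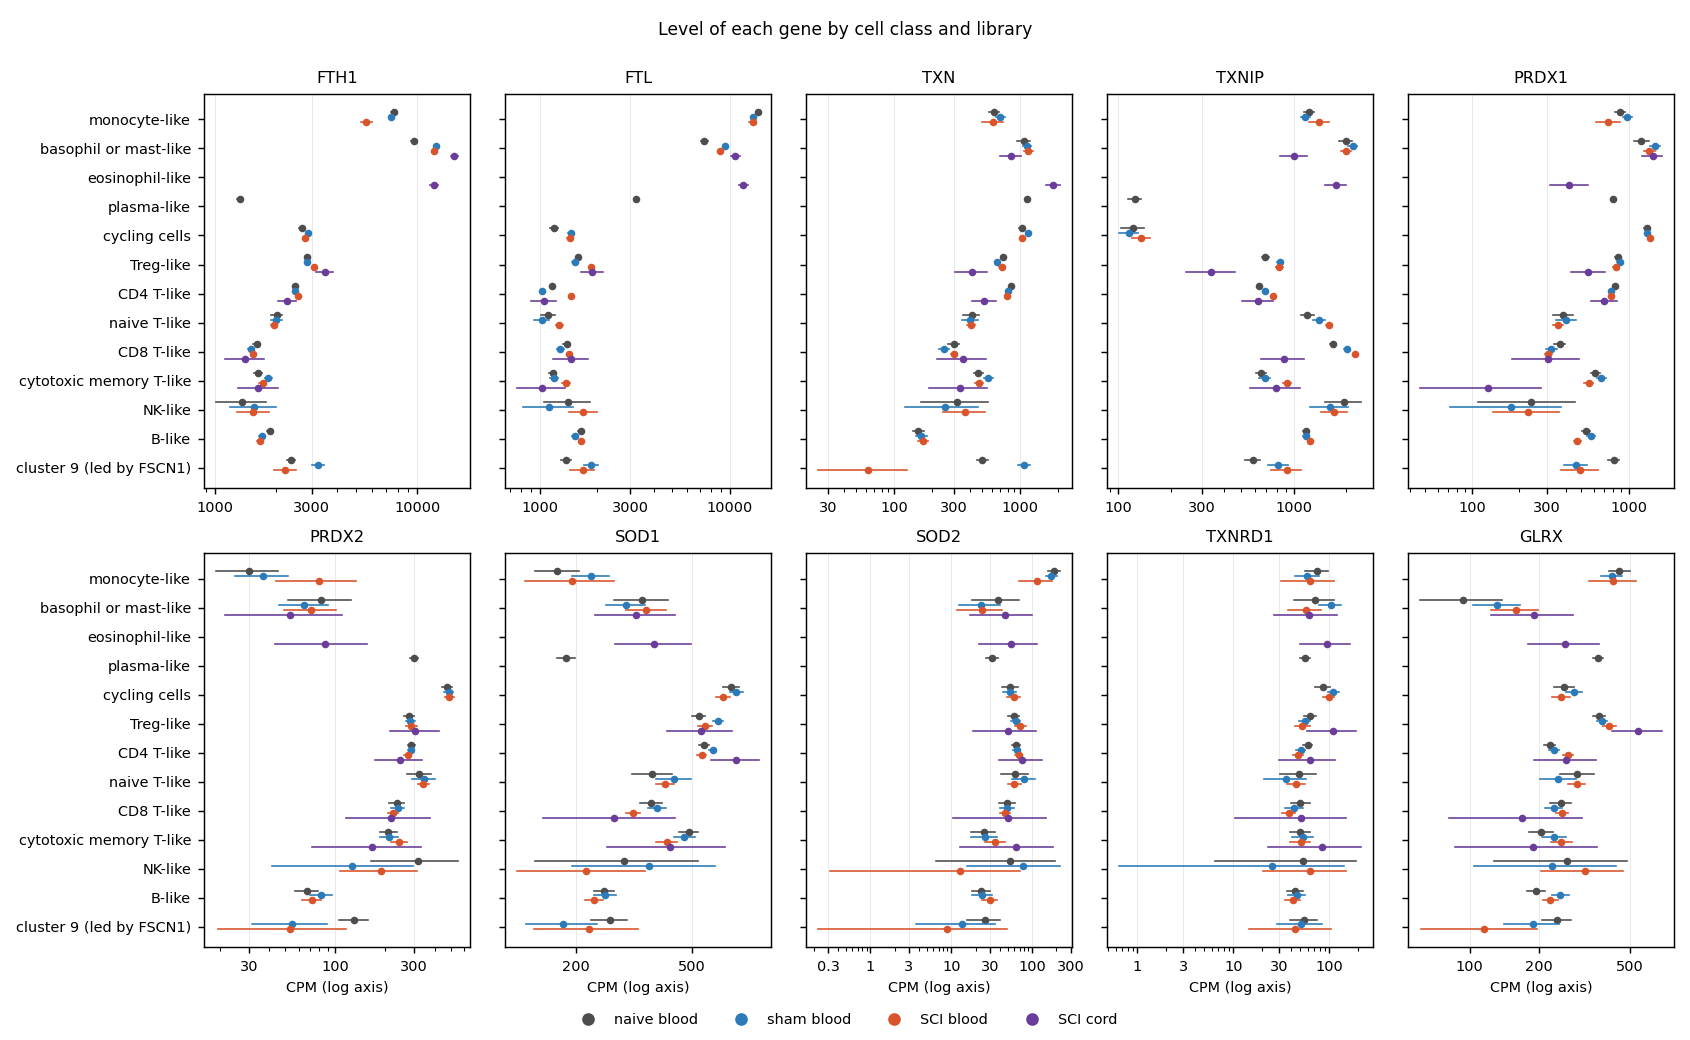
Level of each of the 10 genes in CPM (x axis, log scale, own range per panel) by cell class (y axis), with dots for the 4 libraries and bars for exact Poisson 95% intervals; classes with at least 10 cells in a library are drawn. FTH1 and FTL are highest in the myeloid classes (FTL 14047 CPM in naïve monocyte-like cells), TXNIP is lowest in cycling cells (115 to 135 CPM in blood), and the cord dots of TXNIP lie left of the blood dots in CD8 T-like, Treg-like and basophil or mast-like cells (in the last class not as UMIs per cell).

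Thioredoxin and its inhibitor TXNIP had different class patterns. TXN was highest in plasma-like cells (1136 CPM, naïve blood), basophil or mast-like cells (1074, 1136 and 1165 CPM in naïve, sham and SCI blood) and cycling cells (1036, 1163 and 1040 CPM). It was low in B-like cells, at 156, 165 and 171 CPM, and CD4 T-like cells (847, 810 and 784 CPM) lay well above CD8 T-like cells (298, 249 and 301 CPM) in every blood library. In the cord, eosinophil-like cells held TXN at 1839 CPM (1610 to 2091), the highest level of any class and library.

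TXNIP was high in CD8 T-like, NK-like and basophil or mast-like cells and low in cycling and plasma-like cells. CD8 T-like cells held 1669, 2006 and 2226 CPM in naïve, sham and SCI blood, and basophil or mast-like cells 1987, 2171 and 1997 CPM. NK-like cells (1934, 1604 and 1702 CPM, from 14 to 31 cells) and naïve T-like cells (1199, 1395 and 1586 CPM) followed. Cycling cells held 121, 115 and 135 CPM and plasma-like cells 124 CPM, so that the highest class median was 16.5-fold above the lowest, the widest span of the 10 genes. As UMIs of TXNIP per UMI of TXN, B-like cells stood at 7.56, 7.12 and 7.29 in naïve, sham and SCI blood, and CD4 T-like cells at 0.751, 0.848 and 0.977.

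TXNRD1, which recharges thioredoxin, was low throughout. Its blood levels ran from 85.2 to 110 CPM in cycling cells and from 41.9 to 45.7 CPM in B-like cells, and the span between class medians was 2.28-fold, the narrowest of the set. Only 1 of the 10 steps between neighbouring classes in its order was free of overlap over the 3 blood libraries.

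The peroxiredoxins divided the classes in different ways. PRDX1 was highest in basophil or mast-like cells (1205, 1474 and 1360 CPM in naïve, sham and SCI blood) and cycling cells (1310, 1313 and 1379 CPM), which overlapped with each other, and low in CD8 T-like cells (362, 321 and 307 CPM). PRDX2 was highest in cycling cells (475, 486 and 489 CPM), followed by naïve T-like cells (323, 344 and 341 CPM), and it was low in the classes with most ferritin. Monocyte-like cells held PRDX2 at 29.9, 36.4 and 79.9 CPM and basophil or mast-like cells at 82.3, 65.1 and 71.7 CPM. UMIs of PRDX1 per UMI of PRDX2 accordingly ran from 1.04 to 1.18 in naïve T-like cells of blood, through 2.68 to 2.85 in CD4 T-like cells and 6.55 to 7.97 in B-like cells, to 29.6, 27.0 and 9.29 in monocyte-like cells.

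SOD1 and SOD2 had opposite leading classes. SOD1 was highest in cycling cells (676, 707 and 636 CPM) and low in monocyte-like cells (173, 225 and 194 CPM). SOD2 was highest in monocyte-like cells, with 187 and 174 CPM in naïve and sham blood and 114 CPM (69.7 to 176) from 20 UMIs in SCI blood, while the other blood classes with at least 50 cells in each library lay between 23.5 and 79.2 CPM. A second SOD2 entry in the count tables held 1, 0 and 3 UMIs in naïve, sham and SCI blood and 1 in the cord, and reads shared by both entries would not have been counted. GLRX was highest in monocyte-like cells (450, 417 and 422 CPM) and Treg-like cells (367, 378 and 407 CPM) and low in basophil or mast-like cells (93.6, 132 and 159 CPM).

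The order of the classes was firmer for some genes than for others. Over 11 classes ranked by their median in blood, all 3 blood libraries of a class lay above all 3 of the next class in 6 of 10 steps for FTH1, 5 each for TXN and PRDX1, 4 each for TXNIP and PRDX2, 3 each for FTL and SOD2, 2 each for SOD1 and GLRX, and 1 for TXNRD1. Neighbours that overlapped include Treg-like above cycling cells for FTH1, monocyte-like above Treg-like cells for PRDX1, and cycling above CD8 T-like cells for GLRX, and these are not separated by the spread over libraries. The libraries differ in condition, so that this spread holds more than technical error.

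Genes with the most similar pattern were sought among 3834 genes with a mean of at least 50 CPM, over 33 sums (11 classes by 3 blood libraries), by Pearson's r of log2(CPM + 1). The points share libraries and depth, and the values are a description. FTH1 was most like CTSG (r = 0.92), a granule protease, CEBPB (0.91), a myeloid transcription factor, and CAPZA2 (0.90). FTL was most like TMEM176B (0.95), CEBPB (0.93) and SDCBP (0.91). PRDX1 ran with PKM (0.90), a glycolytic enzyme, ATP1B3 (0.87) and CYTOR (0.86), and PRDX2 with MZT2A (0.92), NDUFB8 (0.92), a subunit of respiratory complex I, and CCDC167 (0.89). SOD1 was most like FDX1 (0.90), SEC11C (0.89) and SKA2 (0.89). The values were lower for TXN, with MYL6 (0.86), SPCS3 (0.86) and WDR1 (0.83), and for TXNRD1, with CLTA (0.83), LMNB1 (0.82), a nuclear lamin, and GAPDH (0.79). TXNIP was nearest to DYNLT3 (0.82), EMC10 (0.74) and RASSF5 (0.74), GLRX to SAMHD1 (0.82), EVI2A (0.77) and SMAP2 (0.77), and SOD2 to JAML (0.76), NLRP1 (0.74) and CAB39 (0.73). Among the 10 genes themselves, the highest values were for FTH1 with FTL (0.88), PRDX2 with SOD1 (0.83) and PRDX1 with TXNRD1 (0.75), and the lowest for FTL with PRDX2 (−0.71).

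The first comparison of blood asked how human immune cells differed after laminectomy alone. Over all cells, sham blood held more TXNIP than naïve blood (918 against 701 CPM, log2 ratio 0.39, 0.36 to 0.42) and more SOD1 (507 against 398 CPM, 0.35, 0.31 to 0.39). FTH1 was 2842 against 2376 CPM (0.26) and FTL 2020 against 2241 CPM (−0.15, but 0.19 as UMIs per cell, 0.06 with every class weighted equally and 0.02 without plasma-like cells). None of the 10 genes was past 1.5-fold in either direction, where 6.76% of 14536 genes tested were past it upwards and 6.12% downwards. Among genes with at least 200 counts, as all 10 had, the shares were 1.94% and 3.04%. The median log2 ratio of the 10 genes was 0.05, and that of all genes tested 0.07.

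Classes differed in number between these libraries, and those shares enter every value over all cells. Plasma-like cells were 6.09% of the cells of naïve blood and held 19.9% of its UMIs, against 2 cells in each of the other libraries. Within classes, 105 pairs of a gene and a class could be compared between sham and naïve blood. Of these, 1 was higher and 4 were lower, or 0.952% and 3.81%, beside 5.71% and 7.82% of all pairs of genes and classes tested. Among pairs with at least 200 counts the shares of all pairs were 0.858% and 1.06%.

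Of these 5 pairs, 4 lay in cluster 9, namely TXN (higher) and PRDX1, PRDX2 and SOD2 (lower), and the other was SOD2 in basophil or mast-like cells, with 13 against 10 UMIs (−0.69, −1.97 to 0.68, but 0.03 as UMIs per cell). TXN in cluster 9 stood at 1083 CPM in 56 cells of sham blood and 504 CPM in 219 cells of naïve blood (log2 ratio 1.11, 0.89 to 1.32). A single sham cell held 248 of its 317 UMIs, or 78.2%. Without that cell the sham level was 248 CPM, which was below the naïve level, so that the higher value rests on 1 cell; none of the 10 B cell markers and none of the 9 plasma cell markers were detected in it. PRDX1 in the same cluster was 458 against 803 CPM (−0.81, −1.09 to −0.54). Beside these values, the 10 monocyte markers summed to 1507 CPM in cluster 9 of sham blood, 75.3 CPM in naïve blood and 17.7 CPM in SCI blood, with 5, 3 and 8 of them at 0, and their part in the result was not tested.

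**Figure D2:**
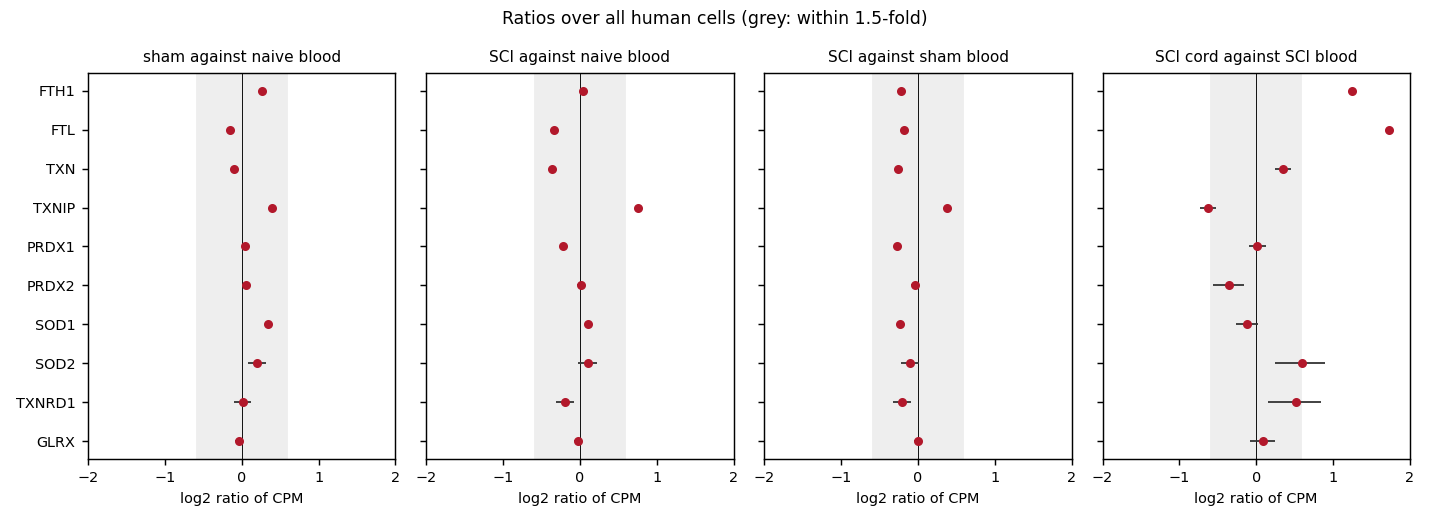
Log2 ratio of CPM over all human cells (x axis) for the 10 genes (y axis) in the 4 comparisons, with bars for exact conditional binomial 95% intervals and grey for genes within 1.5-fold. TXNIP is the only gene past 1.5-fold in a blood comparison (0.76, SCI against naïve), and FTH1, FTL and SOD2 are past it upwards and TXNIP downwards in SCI cord against SCI blood (0.69 for TXNIP if counted as UMIs per cell, and −0.03 for SOD2 without myeloid classes).

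Relative to total UMIs, blood of SCI mice had the highest TXNIP level. Over all cells TXNIP stood at 1187 CPM in SCI blood, 918 CPM in sham blood and 701 CPM in naïve blood, a log2 ratio of 0.76 (0.73 to 0.79) against naïve and 0.37 (0.34 to 0.40) against sham blood. Over the alternatives the ratio to sham blood ran from 0.08 to 0.38. TXNIP was the only one of the 10 genes past 1.5-fold higher against naïve blood, where 8.71% of 14540 genes tested were past it. None was past it downwards, beside 8.61% of genes, with TXN at 566 against 730 CPM (−0.37, −0.40 to −0.33) and FTL at 1779 against 2241 CPM (−0.33, −0.35 to −0.31, but 0.11 with equal class weights) the furthest. Among genes with at least 200 counts, as all 10 had, the shares against naïve blood were 3.78% higher and 4.63% lower. Against sham blood none of the 10 was past 1.5-fold, beside 5.77% of 14496 genes higher and 6.98% lower. With at least 200 counts the shares against sham blood were 1.82% and 2.73%. The log2 ratios to sham blood ran from −0.27 (PRDX1) to 0.37 (TXNIP), with FTH1 at −0.22, FTL at −0.18 (0.05 with equal class weights) and SOD1 at −0.24. These comparisons share libraries, so that their values are not independent of each other.

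The TXNIP difference from naïve blood was smaller within classes than over all cells. CD8 T-like cells made up 10.1%, 13.2% and 24.1% of the cells in naïve, sham and SCI blood, and held 16.6%, 22.7% and 36.3% of all TXNIP UMIs. Within this class TXNIP was 2226 CPM in SCI blood against 1669 CPM in naïve blood (0.42, 0.35 to 0.48) and 2006 CPM in sham blood (0.15, 0.10 to 0.20). Cytotoxic memory T-like cells differed by 0.49 (0.37 to 0.61) from naïve blood and by 0.42 (0.29 to 0.55) from sham blood, with 915, 651 and 684 CPM in SCI, naïve and sham blood. Naïve T-like cells differed by 0.40 (0.27 to 0.54) from naïve blood, and CD4 T-like and Treg-like cells by 0.27 and 0.26. B-like cells differed by 0.08, basophil or mast-like cells by 0.01 and NK-like cells by −0.19. Mean depth of SCI against sham blood differed by −0.26 (log2) in CD8 T-like and −0.34 in cytotoxic memory T-like cells. As UMIs per cell, TXNIP was therefore below sham blood in CD8 T-like, CD4 T-like, Treg-like, B-like and naïve T-like cells. It was above sham blood in cytotoxic memory T-like and monocyte-like cells.

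In all, the TXNIP ratio of SCI to naïve blood was above 0 in 10 of 11 classes with a median of 0.26, and only cluster 9 was past 1.5-fold (0.65, 0.32 to 0.96). With every class given the same weight, the ratio over 11 classes was 0.21, and without plasma-like cells it was 0.49, both within 1.5-fold.

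FTL differed in opposite directions over all cells and within classes. Plasma-like cells held 28.7% of the FTL, 30.9% of the TXN, 26.1% of the GLRX and 20.6% of the PRDX1 UMIs of naïve blood but 3.52% of its TXNIP. Without them the log2 ratio of SCI to naïve blood was −0.16 for FTL and −0.15 for TXN. The FTL UMIs of myeloid classes also differed between libraries. Basophil or mast-like, eosinophil-like and monocyte-like cells together held 25.9%, 40.4% and 17.6% of FTL UMIs in naïve, sham and SCI blood. Monocyte-like cells alone held 10793 of 49400, 11318 of 41486 and 2314 of 38225 of them. Within classes FTL was above 0 in 10 of 11, with a median of 0.24. In CD4 T-like cells FTL was 1466 CPM in SCI blood, 1161 CPM in naïve blood and 1034 CPM in sham blood, a log2 ratio of 0.34 (0.29 to 0.38) and 0.50 (0.46 to 0.55). Treg-like cells differed by 0.23 from naïve and 0.29 from sham blood, and naïve T-like cells by 0.20 and 0.31. All these lay within 1.5-fold. FTH1 in the same classes differed by −0.04 to 0.11.

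Among 108 pairs tested between SCI and naïve blood, 3 were higher and 8 lower past 1.5-fold, or 2.78% and 7.41%, beside 7.22% and 8.91% of all pairs of genes and classes. With at least 200 counts the shares of all pairs were 1.19% and 1.74%. The 3 higher pairs were TXNIP in cluster 9, GLRX in basophil or mast-like cells (159 against 93.6 CPM, 0.74, 0.09 to 1.48, but −0.047 with cells thinned to 1000 UMIs) and PRDX2 in monocyte-like cells (79.9 against 29.9 CPM, 1.44, 0.34 to 2.44), the last resting on 14 and 23 UMIs. Cluster 9 gave 5 of the 8 lower pairs, with TXN lowest at 62.1 against 504 CPM (−2.92, −4.34 to −1.96) on 7 UMIs in 34 cells. Of the 388 naïve UMIs of TXN, 73 came from 3 of 219 cells, and the other 216 cells stood at 421 CPM. The other 3 lower pairs were SOD2 in monocyte-like cells (−0.69, −1.47 to −0.04, but 0.13 as UMIs per cell and 0.04 thinned) and in basophil or mast-like cells, and PRDX2 in NK-like cells, the last 2 with intervals that span 0.

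Between SCI and sham blood, 107 pairs gave 2 higher and 4 lower, or 1.87% and 3.74%, beside 7.33% and 7.02% of all pairs tested. With at least 200 counts the shares of all pairs were 0.991% and 1.47%. The higher pairs were PRDX2 in monocyte-like cells (1.16, 0.11 to 2.09) and FTL in NK-like cells (0.59, 0.10 to 1.13). The lower pairs were TXN and GLRX in cluster 9, TXNRD1 in basophil or mast-like cells (57 against 103 CPM, −0.85, −1.60 to −0.17) and SOD1 in NK-like cells on 17 and 14 UMIs.

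Monocyte-like cells were few in SCI blood, with 18 cells against 139 in naïve and 91 in sham blood. FTH1 in them was 5608 CPM, against 7648 CPM in naïve blood (−0.45, −0.55 to −0.35) and 7433 CPM in sham blood (−0.41, −0.50 to −0.31), and FTL differed by −0.09 and −0.01. A list of 12 genes that respond to handling of cells (FOS, JUN and heat shock genes among them) summed to 8655 CPM in these 18 cells, 3633 CPM in naïve and 4512 CPM in sham monocyte-like cells. Of 11 genes of that list tested against naïve blood, 10 were higher past 1.5-fold and none lower, beside 7.22% and 8.91% of all pairs of genes and classes. Within monocyte-like cells, more than 10% of the genes tested were past it in each direction, with 10th and 90th percentiles of −0.76 and 0.80. The same held in NK-like cells and cluster 9. T cell markers, all 6 detected, summed to 281, 574 and 502 CPM in monocyte-like cells of naïve, sham and SCI blood, and B cell markers to 252, 177 and 599 CPM. The part of either in the FTH1 and PRDX2 values was not tested. In other classes of SCI against naïve blood, handling genes were also higher past 1.5-fold. They numbered 6 of 10 tested in CD8 T-like, 6 of 10 in cytotoxic memory T-like and 6 of 11 in B-like cells. The count was 3 of 10 each in CD4 T-like and Treg-like cells and 4 of 10 in naïve T-like cells, with none lower. Over all cells 5 of 12 were higher and 1 lower, beside 8.71% and 8.61% of all genes. Their part in the TXNIP and FTL differences was not tested.

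**Figure D3:**
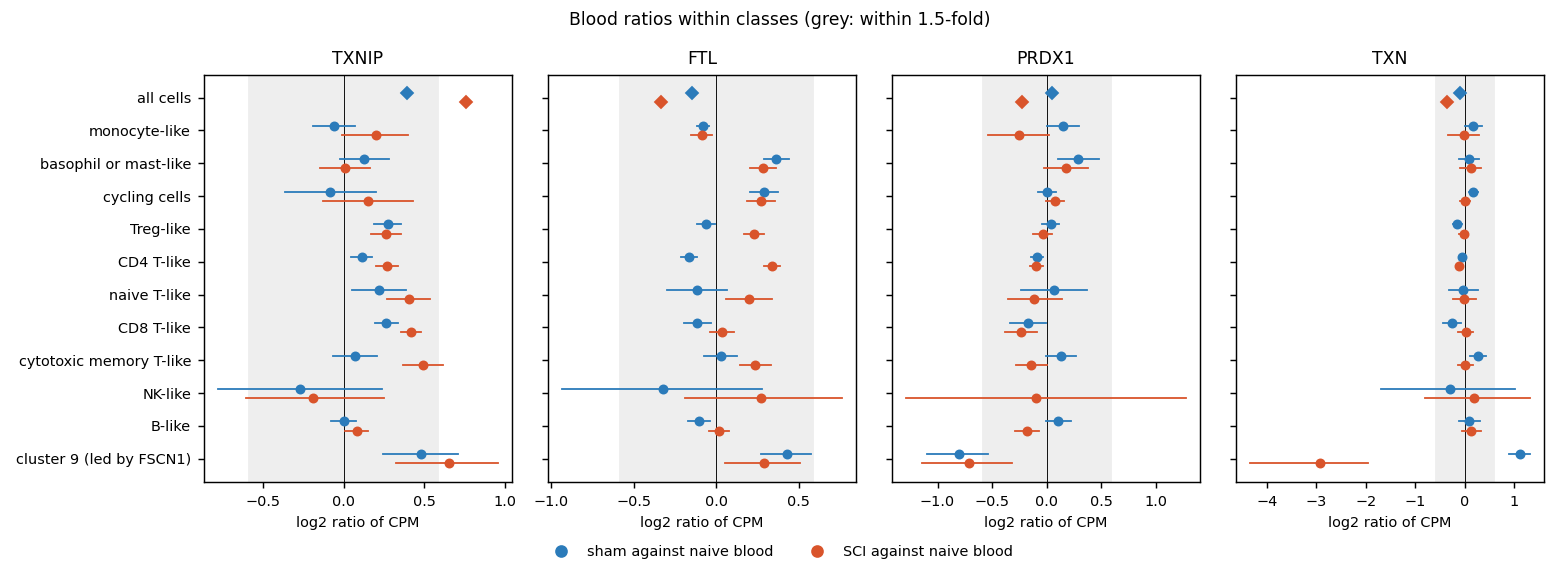
Log2 ratio of CPM (x axis) for TXNIP, FTL, PRDX1 and TXN, with 1 row per class (y axis), for sham against naïve and SCI against naïve blood; bars are exact conditional binomial 95% intervals and diamonds are all cells. The SCI dots of TXNIP lie right of 0 in 10 of 11 classes with a median of 0.26, left of the diamond at 0.76, and those of FTL lie right of 0 in 10 of 11 although its diamond is at −0.33 (0.11 with equal class weights).

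Injured cord was compared with blood of the same SCI group to ask how human cells at the lesion differed from those in circulation. Over all cells, FTL was 5901 CPM in SCI cord against 1779 CPM in SCI blood (log2 ratio 1.73, 1.69 to 1.77), and FTH1 5821 against 2441 CPM (1.25, 1.22 to 1.29). SOD2 was 81.1 against 54.0 CPM (0.59, 0.25 to 0.90) on 86 cord UMIs. TXNIP was lower relative to total UMIs, with 770 against 1187 CPM (−0.62, −0.73 to −0.52), but not as UMIs per cell, where its log2 ratio was 0.69 under the depth shift of 1.31. These 3 higher and 1 lower of 10 genes stand beside 22.2% of 13382 genes tested past 1.5-fold upwards and 17.8% downwards, so that many genes differed between these libraries. Among genes with at least 200 counts, as all 10 had, the shares were 12.5% and 14.5%. TXNRD1 was 71.6 against 50.5 CPM (0.51, 0.15 to 0.84), TXN 722 against 566 CPM (0.35), PRDX2 198 against 253 CPM (−0.35), and PRDX1, SOD1 and GLRX differed by 0.01, −0.12 and 0.09. The sign of several of these smaller differences turned with the cells included or their weight, to −0.48 for TXN with equal class weights and to 0.11 for PRDX2 and 0.07 for SOD1 without the 3 classes described next.

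The ferritin difference went with the mix of cells. Basophil or mast-like, eosinophil-like and monocyte-like cells together were 29.7% of the cells of SCI cord and 2.60% of those of SCI blood. They held 65.6% of the FTH1 and 79.9% of the FTL UMIs in the cord, against 13.2% and 17.6% in SCI blood. Left without these 3 classes, the log2 ratio of cord to blood was 0.51 for FTH1 and 0.28 for FTL, both within 1.5-fold. With the CPM of the 5 classes that had at least 10 cells in both libraries averaged, each class counting once, it was 0.20 and 0.10. Classes with high CPM, here basophil or mast-like cells, weigh most in such an average. The median of the 5 within-class log2 ratios was −0.06 for FTH1 and 0.02 for FTL. The FTL median is the value of Treg-like cells, whose sign rests on 1 cord cell, as described below. SOD2 went the same way, from 0.59 to −0.03 without the 3 myeloid classes, which held 58.1% of its cord UMIs and 2.67% of those in SCI blood.

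**Figure D4:**
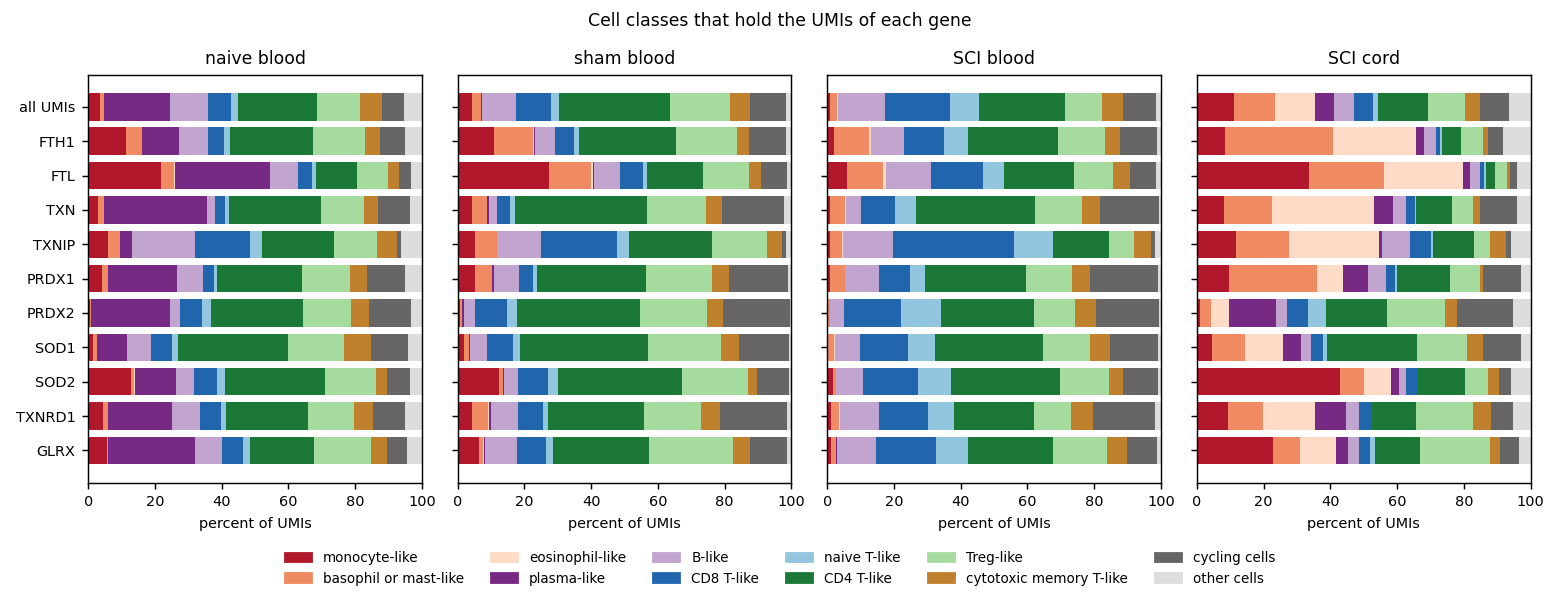
Percent of the UMIs of each of the 10 genes (y axis) contributed by each cell class, as stacked bars for each library; every bar sums to all human cells kept. In SCI cord, basophil or mast-like, eosinophil-like and monocyte-like cells give 65.6% of FTH1 and 79.9% of FTL UMIs, against 13.2% and 17.6% in SCI blood, and plasma-like cells give 28.7% of FTL and 30.9% of TXN UMIs in naïve blood.

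Within classes neither ferritin gene was past 1.5-fold in any of 5 classes. FTH1 differed by 0.34 (0.26 to 0.41) in 15 cord basophil or mast-like cells, with 15301 against 12102 CPM, by 0.17 in Treg-like cells, −0.06 in cytotoxic memory T-like cells, −0.12 in CD8 T-like cells and −0.19 in CD4 T-like cells. FTL differed by 0.26 (0.17 to 0.35) in basophil or mast-like cells, 0.04 in CD8 T-like, 0.02 in Treg-like, −0.41 in cytotoxic memory T-like and −0.47 (−0.70 to −0.25) in CD4 T-like cells. In the Treg-like class of the cord, 1 of 16 cells held 29.0% of the FTH1 UMIs, and without it the level was 2767 CPM against 3087 CPM in SCI blood. For FTL, 1 of the 16 cells held 56 of 224 UMIs. Without it the FTL level was 1598 CPM against 1877 CPM in SCI blood. In cord CD8 T-like cells, 1 of 10 cells held 33 of 87 FTL UMIs. Without it the level was 1100 CPM against 1430 CPM in SCI blood. The FTL ratios above 0 in Treg-like and CD8 T-like cells therefore rest on 1 cell each.

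Relative to total UMIs, TXNIP was lower in the cord both over all cells and in 3 of 5 classes past 1.5-fold. As UMIs per cell, where the greater depth of the cord cells counts, it was higher over all cells (0.69) and none of the 5 classes was past 1.5-fold. Its log2 ratios per cell were −0.30 in CD8 T-like, −0.09 in Treg-like, 0.31 in basophil or mast-like, 0.36 in CD4 T-like and 0.27 in cytotoxic memory T-like cells. CD8 T-like cells held 876 CPM in the cord (52 UMIs in 10 cells) and 2226 CPM in SCI blood (9267 UMIs in 1429 cells), a log2 ratio of −1.33 (−1.77 to −0.95). Treg-like cells held 339 against 828 CPM (−1.27, −1.78 to −0.84) and basophil or mast-like cells 1003 against 1997 CPM (−0.99, −1.27 to −0.73). CD4 T-like cells (628 against 766 CPM, −0.28, −0.59 to 0.00) and cytotoxic memory T-like cells (797 against 915 CPM, −0.18, −0.71 to 0.27) were within 1.5-fold. Without basophil or mast-like, eosinophil-like and monocyte-like cells, TXNIP over the other cells of the cord stood −1.10 from SCI blood, and with equal class weights −0.89.

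The list of 12 handling genes moved with this comparison. Over all cells, 8 of the 12 were higher in the cord past 1.5-fold and none lower, beside 22.2% and 17.8% of all genes, with a median log2 ratio of 1.60, and their median within the 5 classes ran from 0.76 (basophil or mast-like) to 1.25 (cytotoxic memory T-like). Their sum was 8056 against 2505 CPM in CD8 T-like, 6053 against 2623 CPM in Treg-like and 7566 against 3651 CPM in basophil or mast-like cells. In cord Treg-like cells, the 9 basophil or mast cell markers summed to 1178 CPM with none at 0, against 1.70 CPM with 6 at 0 in SCI blood. The part of handling or of RNA from other cells in the TXNIP and other cord values was not tested.

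Over the 49 pairs tested within cord classes, 4 were higher and 6 lower past 1.5-fold, or 8.16% and 12.2%, beside 27.5% and 20.7% of all pairs of genes and classes tested. With at least 200 counts the shares of all pairs were 13.3% and 16.6%. All 4 higher pairs had 13 cord UMIs or fewer. These were TXNRD1 in Treg-like cells (110 against 52.3 CPM, 1.12, 0.13 to 1.90), in CD8 T-like cells (0.64, −1.87 to 2.00, from 3 UMIs) and in cytotoxic memory T-like cells (0.90, −1.17 to 2.16, from 4 UMIs), and SOD2 in cytotoxic memory T-like cells (1.05, −1.49 to 2.47, from 3 UMIs). Besides the 3 TXNIP pairs, the lower ones were TXN (−0.78, −1.24 to −0.39) and PRDX1 (−0.59, −0.98 to −0.24) in Treg-like cells, which as UMIs per cell stood at 0.40 and 0.59, and PRDX1 in cytotoxic memory T-like cells (−2.03, −3.59 to −1.01), the last from 6 UMIs. SOD1 in CD4 T-like cells of the cord, 704 CPM from 112 UMIs, owed 48 UMIs to a single cell, and was 419 CPM without it against 538 CPM in SCI blood.

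**Figure D5:**
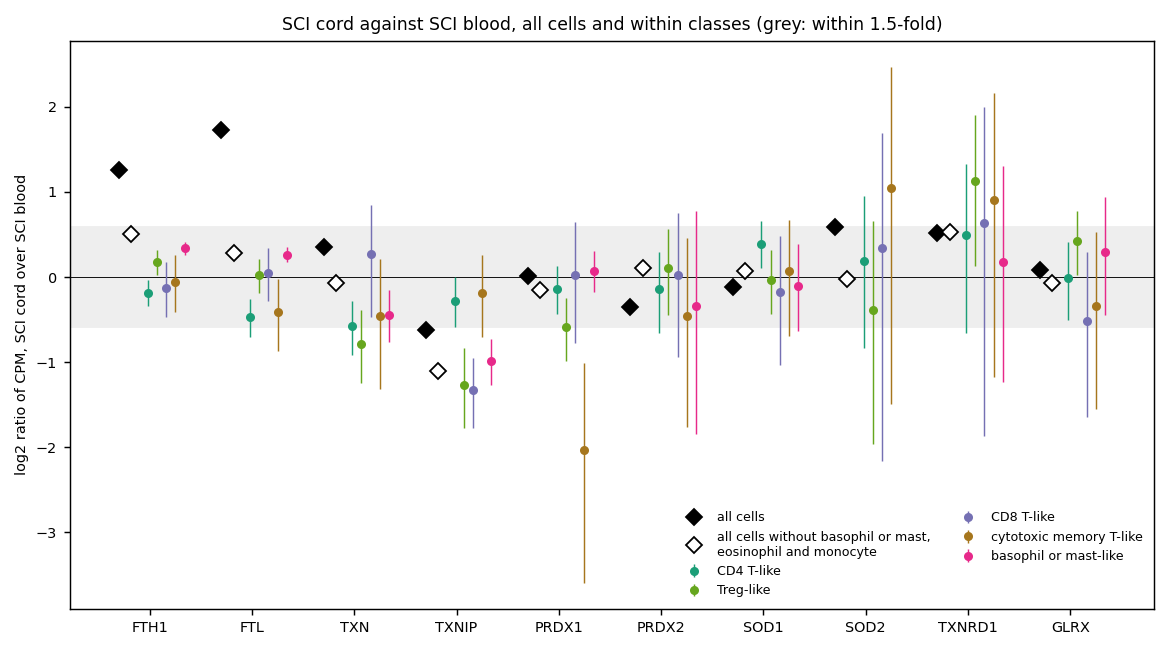
Log2 ratio of CPM, SCI cord against SCI blood (x axis), for the 10 genes (y axis). Filled diamonds are all cells, open diamonds all cells without basophil or mast-like, eosinophil-like and monocyte-like cells, and dots the 5 classes with at least 10 cells in both, with exact conditional binomial 95% intervals. For FTL the filled diamond is at 1.73 and the open one at 0.28, whereas for TXNIP both lie left of 0, at −0.62 and −1.10 (over all cells it is 0.69 as UMIs per cell).

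A wider list of 64 genes for redox balance and iron, which leaves out the 10 genes above, gives their setting. In sham against naïve blood, 59 were tested, with none higher and 3 lower past 1.5-fold, beside 6.76% and 6.12% of all genes, and a median of −0.02. PRDX4, the peroxiredoxin of the endoplasmic reticulum, was the only one with at least 100 counts among them, at 77.6 against 210 CPM (−1.44). It stood at 717 CPM in plasma-like cells, and its median over 10 classes was −0.10. In SCI against naïve blood, 1 of 59 was higher and 11 were lower (1.69% and 18.6%, beside 8.71% and 8.61% of all genes), with a median of −0.07. Against sham blood 1 of 57 was higher and 7 lower (1.75% and 12.3%, beside 5.77% and 6.98%), with a median of −0.04.

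Several of the lowest of these stood highest in monocyte-like cells. Against naïve blood, MGST1 (−2.17), a membrane glutathione transferase, SLC11A1 (−1.09), a phagosomal iron transporter, CYBB (−1.08), the catalytic subunit of the phagocyte NADPH oxidase, and HMOX1 (−0.83), which breaks down haem to release iron, were lower, as was PRDX4 (−1.52). Against sham blood, MGST1 (−2.33), SLC11A1 (−1.03), HMOX1 (−0.999) and CYBB (−0.79) were among the lower ones. Monocyte-like cells, which held the highest blood level of each of MGST1, SLC11A1, CYBB and HMOX1, made up 2.20% of the naïve, 1.96% of the sham and 0.303% of the SCI blood library by cell number. Within classes, CYBB was lower past 1.5-fold against naïve blood in 2 of 3 classes tested, HMOX1 in 2 of 5 (and higher in 1), MGST1 in 1 of 2, and SLC11A1 in 1 of 4 (and higher in 1). Of all pairs of genes and classes tested against naïve blood, 8.91% were lower and 7.22% higher past 1.5-fold. BACH2, a repressor of haem and antioxidant genes that is strong in naïve lymphocytes, was the gene that was higher, by 0.98 against naïve and 1.02 against sham blood, with 3 and 4 of 8 classes past 1.5-fold. Against sham blood 7.33% of all pairs were higher.

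In SCI cord against SCI blood, 25 of 57 genes of this list were higher and 5 lower past 1.5-fold (43.9% and 8.77%, beside 22.2% and 17.8% of all genes), with a median of 0.48 beside −0.01 for all genes. Among the highest were SLC11A1 (2.98), PGD (2.66), an enzyme of NADPH supply, CYBB (2.29) and MSRB1 (1.82), which repairs oxidised methionine. Among the lowest were BACH2 (−1.51), GSTK1 (−0.70), TXNRD2 (−0.62, −1.84 to 0.25, on 9 cord UMIs) and HMOX2 (−0.59). Within classes, MSRB1 had a median of −0.39 over 5 classes, with 2 higher and 2 lower past 1.5-fold. BACH2 had a median of −0.10 over 3 classes, with 1 higher and 1 lower. Within the 5 classes the median of the list was near 0, from −0.06 in cytotoxic memory T-like to 0.14 in CD4 T-like cells. The higher and lower genes numbered 13 and 4 of 53 in CD4 T-like, 9 and 11 of 50 in CD8 T-like, 16 and 8 of 51 in Treg-like, 5 and 7 of 41 in basophil or mast-like and 14 and 15 of 50 in cytotoxic memory T-like cells, beside 27.5% and 20.7% of all pairs of genes and classes.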

How the data were processed

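Single-cell 3' libraries of sorted human cells (4 libraries, 1 per group) were sequenced in the study. Per the labels and the study's methods, the authors counted UMIs with Cell Ranger on a combined human and mouse reference (hg38 and mm10) and deposited these counts per gene and barcode without normalisation. Everything else was computed from the deposited counts.

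Barcodes with over 50% human UMIs were kept. Within each library, those beyond 3 median absolute deviations (low UMIs or genes, high mitochondrial or ribosomal percent) were removed. Scrublet scores marked doublets up to 0.8% per 1000 barcodes, since its automatic threshold marked 0 barcodes in naïve blood, and marked barcodes with over 3000 genes were removed. Marked barcodes with fewer genes stayed in. Cells were clustered with the Leiden method (resolution 0.8, 2000 variable genes, 30 components, 15 neighbours), without the 10 genes and the redox and iron list. Which clusters were kept apart was settled after they had been seen.

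Counts were summed per library and class (at least 10 cells) and scaled to CPM without ribosomal and mitochondrial genes, so that deep cells weigh more. Log2 ratios had 0.5 added to each count and needed 20 counts over both libraries. Intervals are exact at 95% (Poisson for levels, conditional binomial for ratios). With 1 library per group there was no test. Of the wider list, the text names the 5 highest and 5 lowest genes past 1.5-fold with at least 100 counts, and for each of the 10 genes the 3 most similar genes. GPX1 was not analysed here, and values of some genes that this rule selects are not reported here. Genome positions and sequences of the human genes were not used here. The genes, lists and alternatives were chosen with earlier results of these data known. The alternatives were other scalings (edgeR and DESeq2 factors, UMIs per cell, equal class weights), other filters and resolutions, and thinning of cells to 1000 UMIs. Equal class weights average the CPM of the classes before the ratio is taken, so that classes with high CPM weigh most. Python 3.11.15 with scanpy 1.11.5, numpy 2.4.6, pandas 2.3.3, scipy 1.17.1, igraph 0.11.9, scikit-learn 1.9.0 and matplotlib 3.10.9 was used, and edgeR 4.0.16 and DESeq2 1.42.0 under R 4.3.3 for scaling factors only. The calculations were tested on simulated data.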

Additional observations from a re-analysis of the deposited data

Results flagged for a closer look

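Against naïve blood, SCI blood gave opposite directions past 1.5-fold in different classes for PRDX2 and GLRX, and the differences between classes were not tested. PRDX2 had a log2 ratio of 1.44 in monocyte-like cells (14 and 23 UMIs) and −1.18 in cluster 9 (6 and 100 UMIs). GLRX had 0.74 in basophil or mast-like cells (73 and 25 UMIs) and −1.01 in cluster 9 (13 and 185 UMIs).

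Mouse counterparts of the 10 genes were counted in barcodes with mostly mouse UMIs, which the comparisons did not use. Over the 4 libraries these held 121193 UMIs of Ftl1, 113858 of Fth1, 15620 of Txn1, 8044 of Prdx2, 5620 of Txnip, 4126 of Glrx, 3079 of Prdx1, 816 of Sod2, 285 of Txnrd1 and 281 of Sod1. In human cells, the mouse counterpart reached 6.88 UMIs per 100 human UMIs for FTL in sham blood and 5.03 for PRDX2 in naïve blood.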

How the results depend on the processing

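No paired analysis was possible because each group has 1 library, and for the same reason no replicate could be left out. Alternatives without plasma-like cells, without cluster 9 and NK-like cells, or without basophil or mast-like, eosinophil-like and monocyte-like cells were chosen after seeing the data. With UMIs per cell in place of CPM, pairs of a gene and a class past 1.5-fold numbered 64 (sham to naïve blood), 34 (SCI to naïve blood), 12 (SCI to sham blood) and 31 (cord to SCI blood) in place of 5, 11, 6 and 10. Genes past it over all cells then numbered 3 (sham to naïve blood) and 10 (cord to SCI blood) in place of 0 and 4. With at least 200 counts the pairs numbered 2, 3, 1 and 6, beside the shares of all pairs at that count given with each comparison. How many of the pairs were tested at that count is not reported here. Without cluster 9 and NK-like cells they numbered 1, 4 and 2 in the blood comparisons. For the other alternatives, among them UMIs per cell and thinning, no share of all genes is given, so that their counts stand alone. Thinning gave 10 for sham against naïve blood and 18 for cord. Sham against naïve blood gave 3 with the mean of CPM per cell and 1 at resolution 1.5, and SCI against naïve blood gave 7 at resolution 0.4. TXNIP, past 1.5-fold over all cells in SCI against naïve blood, was the gene lost with equal class weights and without plasma-like cells (0 genes each). For cord over all cells, equal class weights and no removal of outlying cells each left 2 genes, and leaving out the 3 myeloid classes left 1. With UMIs per cell, cord values turned to 0.69 for TXNIP over all cells, 0.31 for TXNIP in basophil or mast-like cells, and 0.40 for TXN and 0.59 for PRDX1 in Treg-like cells. SOD2 turned to −0.026 for cord without the 3 myeloid classes, to 0.035 (UMIs per cell) in basophil or mast-like cells of sham against naïve blood, and to 0.13 (UMIs per cell) and 0.039 (thinned) in monocyte-like cells of SCI against naïve blood. GLRX turned to −0.047 when thinned in basophil or mast-like cells of SCI against naïve blood. The scaling by UMIs per cell retains differences in depth by its construction, and the cause of the other changes was not tested. Under the alternatives, 416 of 441 values of pairs past 1.5-fold moved by less than their interval, 18 by more and 7 turned. Of 610 values over all cells 396, 212 and 2 were counted so. The 2 are not all the changes of sign. Over the alternatives FTL ran from −0.45 to 0.11 in SCI against naïve blood. In cord against SCI blood TXN ran from −0.48 to 1.66 and PRDX2 from −0.54 to 0.96, and other genes also crossed 0. The cord library holds 118 cells, which limits its class values.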

Other observations

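Across single cells thinned to 1000 UMIs, FTH1 and FTL had rank correlations (Spearman) of −0.15 to 0.52 over 26 sets of a class and a library, with a median of 0.04. The values were 0.52 and 0.44 in basophil or mast-like cells of sham and SCI blood. These are descriptions of sparse counts from cells of 1 library.

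Human UMIs of the 10 genes were also counted in barcodes with mostly mouse UMIs. FTH1 stood at 1615, 2109 and 1781 CPM of human UMIs in such barcodes of naïve, sham and SCI blood, against 2376, 2842 and 2441 CPM in human cells, and TXNIP at 1273, 1065 and 1500.0 CPM in those barcodes, against 701, 918 and 1187 CPM. In SCI cord they held FTH1 at 10679 CPM (119 UMIs) against 5821 CPM in human cells, and FTL at 11667 CPM (130 UMIs) against 5901 CPM. TXN and TXNIP each stood there at 2244 CPM (25 UMIs), against 722 and 770 CPM in human cells. PRDX1, PRDX2 and SOD1 stood lower in those cord barcodes than in human cells, and SOD2 and GLRX were at 0. The part of such RNA in the cord values was not tested.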
